A study of Mus musculus with 6 samples.

Results

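The replication-dependent histone genes of the mouse were taken as all rows of the gene table whose symbol begins with Hist1h, Hist2h, Hist3h or Hist4h, without the rows marked as pseudogenes. The rule found 67 of the 31017 genes in the table. By class they were 6 genes of the linker histone H1, 18 of H2A, 18 of H2B, 12 of H3 and 13 of H4. By cluster they were 54 Hist1 genes, which GENCODE M21 places on chromosome 13, 10 Hist2 genes on chromosome 3, 2 Hist3 genes on chromosome 11 and the lone Hist4 gene on chromosome 6. The series measured RNA from Th17 cells, helper T cells named for interleukin 17, which were differentiated in culture. There were 3 control libraries (genotype WT in the labels) and 3 libraries from cells deficient in RTF1 (KO), a partner of the PAF1 elongation complex that promotes the ubiquitination of histone H2B on transcribed genes. How the deficiency was made, the age and strain of the mice and the culture conditions were not given in the sources used here. The labels do not say whether replicates came from separate mice or cultures, so p-values measure the spread between these libraries, which may be technical in part.

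Histones pack DNA: the core histones H2A, H2B, H3 and H4 form the nucleosome, and H1 binds the DNA between nucleosomes. Most of their supply comes from genes that are transcribed while DNA is being copied. Their mRNAs lack introns and, as a rule, end without a poly(A) tail in a short stem-loop that is bound by SLBP, while NPAT brings the cell cycle signal of cyclin E and CDK2 to the gene clusters.

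The stem-loop is shown first because it is the feature the members share. In 26-base windows of GENCODE M21 transcripts (GRCm38), the capitals mark the 6-base arms that pair with each other across 4 bases, and 1 or 2 genes of each class are given.
Hist1h1c: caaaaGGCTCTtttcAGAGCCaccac
Hist2h2ac: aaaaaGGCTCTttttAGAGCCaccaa
Hist1h2bk: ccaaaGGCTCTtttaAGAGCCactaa
Hist3h2a: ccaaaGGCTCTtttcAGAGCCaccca
Hist1h3f: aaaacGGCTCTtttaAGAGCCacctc
Hist1h4d: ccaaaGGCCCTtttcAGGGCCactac
Hist1h4j: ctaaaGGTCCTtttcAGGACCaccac
The arms GGCTCT and AGAGCC were found after the stop codon in 34 members, 4 of H1, 11 of H2A, 10 of H2B and 9 of H3, and in none of H4. H4 genes carried other letters in the same place, GGCCCT with AGGGCC in 10 genes and GGTCCT with AGGACC in Hist1h4j and Hist1h4b, a search added after the data were seen. In the remaining 21 members none of these forms was found, and in 15 of these the annotated transcript ends within 30 bases of the stop codon, before a stem-loop could be reached. The other 6 were Hist2h2be, Hist1h2bc, Hist1h2bq, Hist1h2br, Hist1h1a and Hist2h3b. Of these, Hist2h2be has 2192 annotated bases after its stop codon. Hist2h3b has only 37, and the stem-loops found in H3 genes began 24 to 37 bases past the stop codon. In Hist2h3b the annotation therefore also ends too early to hold a whole stem-loop at those places.

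Upstream of the start sites the members also resembled each other. The promoters of 3 genes of different classes are printed. Hist1h2bk had the largest decrease, Hist3h2a the largest increase, and Hist1h4d had the most counts among H4 genes. Each shows the 150 bases before the start in RefSeq (GRCm38.p6), with matches to the octamer ATTTGCAT, to CCAAT and to TATAAA on either strand in capitals.
Hist1h2bk, chr13:22035671-22035820, plus strand: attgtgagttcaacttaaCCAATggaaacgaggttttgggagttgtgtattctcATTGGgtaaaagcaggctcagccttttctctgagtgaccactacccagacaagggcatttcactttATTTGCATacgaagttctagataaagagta
Hist3h2a, chr11:58954535-58954684, plus strand: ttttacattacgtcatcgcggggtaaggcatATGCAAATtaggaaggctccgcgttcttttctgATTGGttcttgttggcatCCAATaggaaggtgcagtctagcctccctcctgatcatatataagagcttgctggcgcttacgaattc
Hist1h4d, chr13:23581418-23581567, plus strand: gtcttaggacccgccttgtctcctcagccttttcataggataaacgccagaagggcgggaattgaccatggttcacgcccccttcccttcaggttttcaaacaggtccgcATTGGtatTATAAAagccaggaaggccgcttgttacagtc
In windows from 250 bases before to 50 bases after the start, available for 62 members, the octamer on either strand was present in 14 members (22.6%) against 1.97% of 27025 genes. All 14 were H2A or H2B genes, 7 of each. CCAAT was present in 53 members (85.5%) against 41.1% of genes, but in only 3 of 12 H4 promoters. TATAAA was present in 35 members (56.5%) against 15.7% of genes. The motifs were searched one by one, so matches may overlap, and a match describes the letters of the window only.

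Total counts ranged from 16489813 to 51271226 per library. Rtf1 itself had 94.0, 91.2 and 88.3 CPM (counts scaled to a common library total with edgeR's TMM factors) in control libraries 1 to 3 and 45.3, 30.4 and 26.2 in KO libraries, and fell by 1.42 on the log2 scale (SE 0.191, Benjamini-Hochberg adjusted p = 0.000755 in edgeR's quasi-likelihood test). Replicate 3 of both groups stood apart by sex: it held 11376 counts (control) and 5147 counts (KO) of 4 Y-linked genes, against 1 to 3 in the other libraries. Replicate 3 therefore came from other mice than replicates 1 and 2. T cell markers were present throughout, with Cd4 at a mean of 486 ± 48.6 CPM in the 3 control and 254 ± 36.0 CPM in the 3 KO libraries (SD), and 3 of the 7 markers listed were lower and 2 higher. CD8 and NK cell markers summed to 10.7 to 14.9 CPM in control and 13.7 to 14.5 in KO. Markers of B cells, erythroid cells and fibroblasts summed to at most 3.34 CPM in any library. The 6 myeloid markers summed to 2.58 to 5.20 CPM in control and 16.9 to 28.5 in KO, most of it Cd68. Cd68 (2.66) and Csf1r (1.72) were called higher, Lyz2, too low to be tested, had a mean of 0.045 CPM in control and 0.816 in KO, Cd14 did not pass (1.36), and Itgam and Adgre1 were under 0.1 CPM on average in both groups. The part of these markers in the histone result was not tested.

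The histone genes were lower in KO cells in every class. Of 62 members with enough counts to be tested, 57 were lower at an adjusted p under 0.05 and 2 were higher, where the same edgeR test called 22.9% of 14268 genes lower and 23.2% higher. The median log2 fold change of the tested members was -1.53, against 0.01 over all tested genes, and 57 members fell to a log2 value of -1 or less, as did 12.2% of all tested genes. In 49 of the 62 members (79.0%) every KO library lay below every control library, a pattern that held for 28% of all tested genes. The 4 members listed at 0 in every library were Hist2h2aa1, Hist2h2aa2, Hist2h3b and Hist2h2bb, and Hist1h2aa had 6 counts in all. In bulk RNA, fewer cells that express these genes and less RNA per cell cannot be told apart.

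Summed over all members, the counts made up 1.72%, 2.25% and 1.09% of the library in the 3 controls in order of replicate number, and 0.841%, 0.618% and 0.404% in KO. In CPM the sum was 17211, 23826 and 11307 in control (17448 ± 6263, SD, n = 3) and 8178, 5927 and 3969 in KO (6025 ± 2106). Control replicate 2 was the highest and control replicate 3 the lowest control, yet all KO libraries lay below it. KO replicate 1 stood nearest to the controls. The KO mean was 34.5% of the control mean, a log2 ratio of -1.53, and between libraries with equal replicate numbers it was 47.5%, 24.9% and 35.1%. With replicates 1 and 2 alone, the log2 ratio was -1.54, with 59 members lower and 1 higher.

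**Figure D1:**
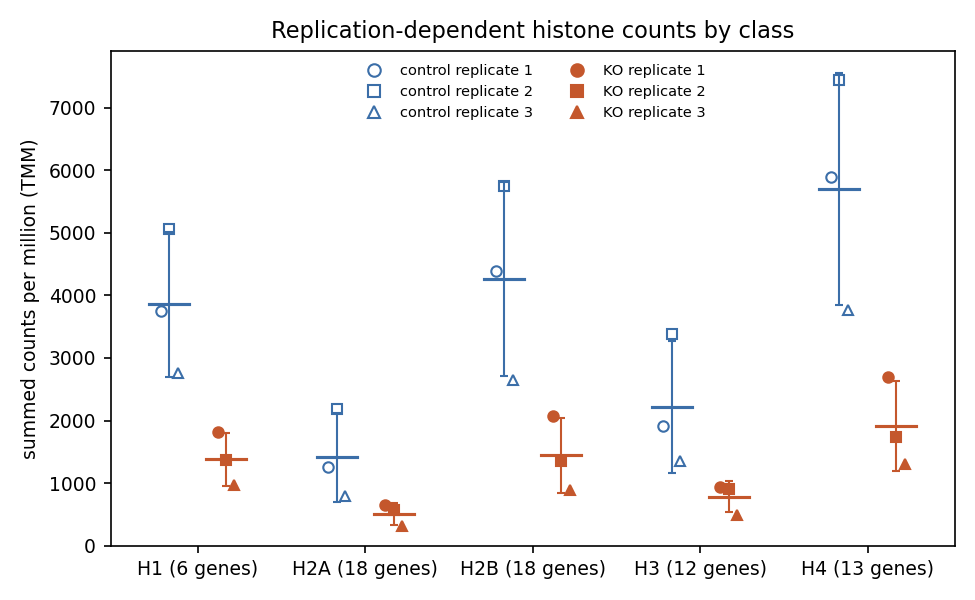
Summed CPM (vertical axis) of all members of each histone class in the 3 control libraries (open symbols) and the 3 KO libraries (filled symbols), with the mean (line) and SD (bar). In each of the 5 classes the 3 KO libraries lie below the 3 controls, and control replicate 2 is the highest library.

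The 5 classes fell by similar amounts. The H1 sum was 3759, 5055 and 2755 CPM in control and 1814, 1366 and 968 in KO, leaving 35.8% of the control mean. For H2A it was 1259, 2188 and 789 CPM in control and 651, 566 and 316 in KO, or 36.2%. For H2B it was 4388, 5754 and 2648 CPM in control and 2080, 1354 and 893 in KO, or 33.8%. None of these groups overlapped. The H3 sum was 1910, 3383 and 1349 CPM in control and 936, 909 and 493 in KO, or 35.2%. The H4 sum was 5894, 7446 and 3766 CPM in control and 2697, 1733 and 1299 in KO, or 33.5%. Here too every KO library was below every control library, and the library order was the same in each class. The log2 ratios of the class means spanned only -1.58 in H4 to -1.47 in H2A, less than the spread among libraries of a group.

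The balance among classes did not separate the groups. Per kilobase of coding length, H4 made up 41.6% ± 1.86 of the histone level in control and 40.3% ± 2.43 in KO, H2B 25.2% ± 0.920 and 24.5% ± 1.49, H1 13.5% ± 1.08 and 14.0% ± 0.758, H3 11.9% ± 1.56 and 12.6% ± 2.04, and H2A 7.85% ± 1.19 and 8.58% ± 0.978 (SD, n = 3). The shares of total histone counts overlapped between control and KO for every class. The scale by coding length was added after seeing the data, where exon length was planned. It does not allow for annotated bases outside the coding part, which are many in Hist1h1d (7425 exon bases, 663 coding). Histone copies share sequence, so the reads of one gene may be counted to another or dropped. The median member had 54.1% of its 50-base stretches in transcripts of other genes, whether members or not. A class sum is not changed by reads swapped between its own copies. It does not recover reads that were dropped or counted to genes outside the class. How far this affects the shares of the classes was not tested. The 13 members with under 20% of such stretches had 10 lower and 1 higher, with a median log2 fold change of -1.36, and their summed level had a log2 ratio of -1.46.

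H1 is the class whose genes can best be told apart, with a median of 1.13% shared stretches. All 6 H1 genes were tested and 5 were lower, with a median of -1.55. Hist1h1c had 1071, 1481 and 898 CPM in control and 579, 502 and 393 in KO, and so fell by 1.23 on the log2 scale (SE 0.214, adjusted p = 0.00228 in edgeR). It was the smallest decrease in the class, with groups that did not overlap. Hist1h1d had 969, 1321 and 729 CPM in control and 446, 308 and 208 in KO (-1.65, adjusted p = 0.00268 in edgeR). Hist1h1e had 843, 1040 and 638 CPM in control and 390, 289 and 219 in KO (-1.49, edgeR adjusted p = 0.00167). Unlike the class median, 32.0% of its stretches were shared, mainly with Hist1h2be (23.8%). Hist1h1b, with no shared stretch, had the largest decrease among H1 genes. It had 529, 725 and 308 CPM in control and 238, 154 and 87.4 in KO (-1.70, SE 0.388, edgeR adjusted p = 0.00741). Hist1h1t, the H1 gene of male germ cells, was near the limit of detection: it had 4, 24 and 5 counts in control and 10, 16 and 8 in KO, with overlapping groups (0.45, edgeR adjusted p = 0.534).

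H4 genes all encode 1 protein of 103 residues with the first methionine, so the 13 genes differ in mRNA but not in protein. Of 13 tested, 12 were lower, with a median of -1.61. Hist1h4d had 1167, 1505 and 824 CPM in control and 529, 354 and 274 in KO (-1.60, SE 0.281, edgeR adjusted p = 0.00238). Hist1h4f had 869, 1107 and 541 CPM in control and 374, 237 and 175 in KO (-1.68, adjusted p = 0.00336 in edgeR). Hist1h4k had 704, 912 and 463 CPM in control and 318, 208 and 155 in KO (-1.61, edgeR adjusted p = 0.00319). In each of these the KO libraries were all below the controls. Hist1h4c had 713, 877 and 414 CPM in control and 352, 237 and 190 in KO, a smaller decrease of -1.36 (edgeR adjusted p = 0.00633). Hist1h4b, with the largest decrease in the class, was low in every library: it had 5.71, 7.66 and 2.90 CPM in control and 2.43, 1.36 and 0.763 in KO (-1.82, SE 0.482, edgeR adjusted p = 0.0142). With control replicate 2 left out its adjusted p in edgeR was 0.0514, and without KO replicate 2 it was 0.0587.

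H3 genes encode 2 proteins, H3.1 from 4 genes and H3.2 from 8. All 11 tested H3 genes were lower, with a median of -1.52. Hist1h3e had 419, 694 and 340 CPM in control and 200, 194 and 110 in KO (-1.53, SE 0.302, edgeR adjusted p = 0.00386), and 73.4% of its stretches were shared, mainly with Hist1h3f. Hist1h3f had 360, 651 and 281 CPM in control and 172, 177 and 99.4 in KO (-1.53, edgeR adjusted p = 0.00551). Hist1h3c had 294, 600 and 191 CPM in control and 145, 168 and 91.1 in KO (-1.43, edgeR adjusted p = 0.0166). Hist1h3a had 188, 341 and 145 CPM in control and 91.9, 82.6 and 46.4 in KO (-1.61, edgeR adjusted p = 0.00530). In these 4 genes the KO groups did not reach the controls, and KO replicate 3 was the lowest library. The H3.1 genes had a summed log2 ratio of -1.50 and the H3.2 genes of -1.51. H3.1 took 32.0% ± 0.944 of the H3 counts in control and 32.1% ± 1.80 in KO, shares that overlap. Within the class the largest decrease was that of Hist1h3b, with 121, 207 and 73.8 CPM in control and 59.2, 47.2 and 23.4 in KO (-1.63, edgeR adjusted p = 0.0110). The smallest was that of Hist2h3c1 on chromosome 3, a gene with no stretch of its own.

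H2B is the histone on which RTF1 promotes ubiquitination. Of its 17 tested genes 16 were lower and 1 was higher, with a median of -1.47. Hist1h2bk had the largest decrease of all members. It had 335, 422 and 200 CPM in control and 132, 82.7 and 44.7 in KO (-1.88, SE 0.387, edgeR adjusted p = 0.00475), with no overlap of the groups, and 74.2% of its stretches were shared with other genes. Hist1h2bg had 686, 925 and 501 CPM in control and 283, 184 and 111 in KO (-1.87, SE 0.337, edgeR adjusted p = 0.00268). Hist1h2be had 538, 698 and 403 CPM in control and 256, 181 and 141 in KO (-1.51, adjusted p = 0.00205 in edgeR). Hist1h2bb had 523, 731 and 320 CPM in control and 268, 184 and 116 in KO (-1.47, edgeR adjusted p = 0.00880). All 3 had KO libraries below every control. Hist1h2bn had 445, 609 and 250 CPM in control and 207, 135 and 85.6 in KO (-1.61, edgeR adjusted p = 0.00780).

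H2A had 15 tested genes, of which 13 were lower and 1 was higher, with a median of -1.49. The class holds the most alike copies, with a median of 73.0% shared stretches, and 9 Hist1 genes encode 1 protein. Hist1h2ab had 296, 534 and 187 CPM in control and 154, 134 and 73.2 in KO (-1.49, edgeR adjusted p = 0.0128). Hist1h2ak had 263, 424 and 163 CPM in control and 120, 101 and 61.8 in KO (-1.59, edgeR adjusted p = 0.00621). Hist1h2ae, the largest decrease in the class, had 88.9, 162 and 70.4 CPM in control and 37.1, 39.7 and 17.4 in KO (-1.76, SE 0.367, edgeR adjusted p = 0.00493). In all 3 the groups were separate.

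**Figure D2:**
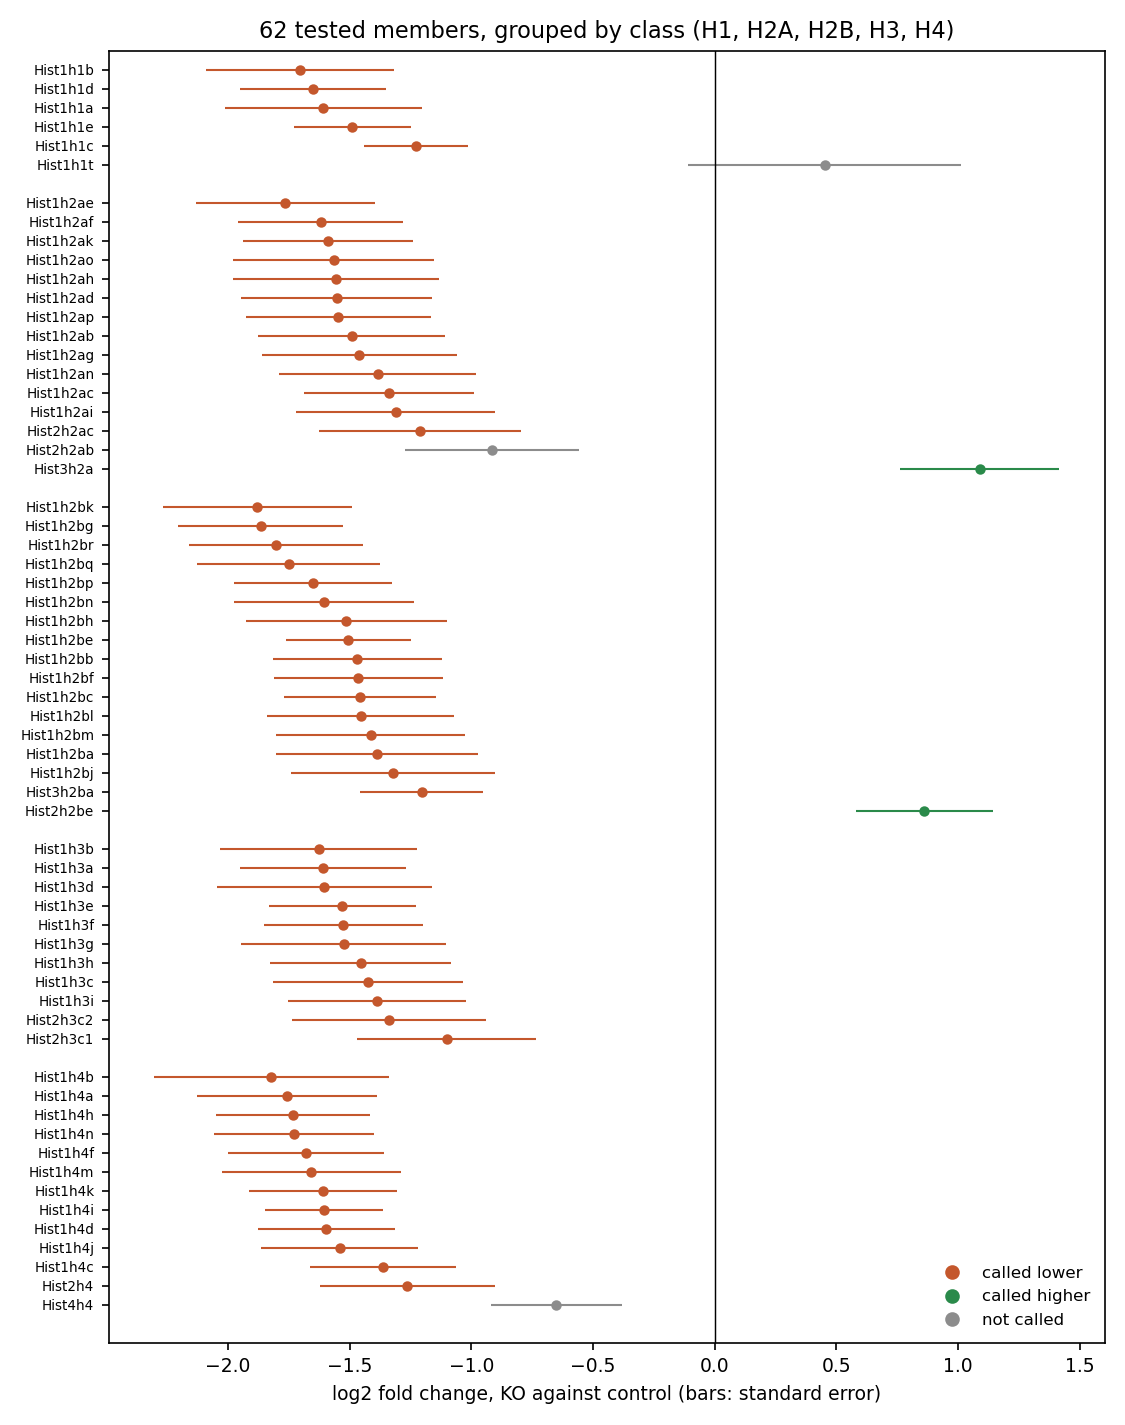
Log2 fold change of KO against control (horizontal axis) for each of the 62 tested members, with its standard error (bar), in blocks for H1, H2A, H2B, H3 and H4 from the top. All called decreases lie between -1.88 and -1.10. Hist2h2be and Hist3h2a lie to the right of 0 as called increases, and Hist2h2ab, Hist4h4 and Hist1h1t were not called.

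By cluster, 52 of 53 tested Hist1 genes were lower, with a median of -1.55, Hist1h1t being the exception. The genes lie in 4 blocks on chromosome 13 separated by more than 100000 bases, and the medians of the blocks were -1.58 (18 genes, chr13:21715763-21837530), -1.56 (5 genes, chr13:22035164-22043676), -1.53 (29 genes, chr13:23531050-23764406) and -1.39 for the single tested gene of the last (chr13:23933773-23934851). That gene is Hist1h2ba, an H2B gene of male germ cells. Among H2A and H2B genes the 12 tested with an octamer had a median of -1.48, and the 18 without had -1.53. The 44 tested members with a stem-loop in their annotation had a median of -1.53. Without one, the 5 tested members with 30 or more annotated bases past the stop codon had -1.61. The 13 tested members whose annotation ends earlier had -1.46.

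Hist2, Hist3 and Hist4 made up larger shares of the histone counts in KO than in control. The Hist1 sum was 16639, 23000 and 11005 CPM in control and 7830, 5657 and 3779 in KO, or 34.1% of the control mean. The Hist2 sum was 441, 665 and 223 CPM in control and 253, 196 and 129 in KO, or 43.5%, and the groups overlapped. The Hist3 sum fell to 54.8% of the control mean, with separate groups. Hist4, a single gene, fell to 63.6%, with overlapping groups. Accordingly, Hist1 made up 96.8% ± 0.423 of histone counts in control and 95.5% ± 0.273 in KO, Hist2 2.44% ± 0.421 and 3.22% ± 0.114, Hist3 0.133% ± 0.00663 and 0.224% ± 0.0675, and Hist4 0.577% ± 0.0406 and 1.09% ± 0.141 (SD, n = 3). For each cluster the 3 KO shares lay on one side of the 3 control shares. The shares add up to the whole, so that of Hist1 follows from the others.

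**Figure D3:**
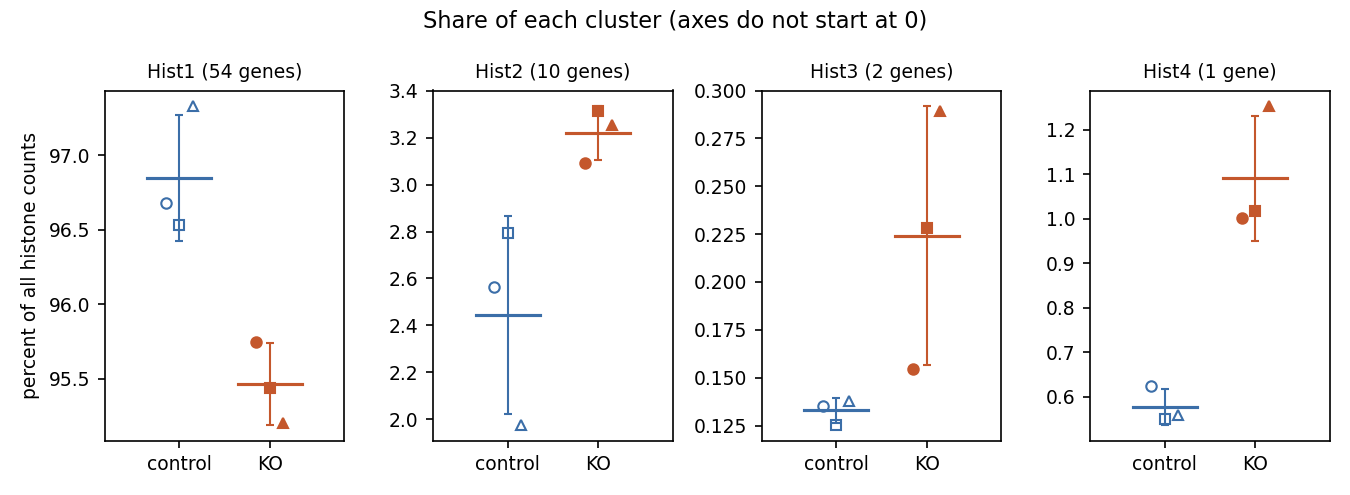
Percent of all histone counts (vertical axes, which do not start at 0) taken by the Hist1, Hist2, Hist3 and Hist4 genes in each control library (open) and KO library (filled), with mean and SD; circles are replicate 1, squares replicate 2 and triangles replicate 3. The Hist1 share is below every control in KO, and the shares of the other clusters are above.

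In Hist2, 4 of 6 tested genes were lower and 1 was higher. Hist2h2ac had 181, 361 and 110 CPM in control and 120, 106 and 56.5 in KO (-1.21, SE 0.414, edgeR adjusted p = 0.0398), with KO replicate 1 above control replicate 3. Hist2h4 had 224, 261 and 94.5 CPM in control and 111, 71.6 and 59.1 in KO (-1.26, edgeR adjusted p = 0.0197). Hist2h3c2 had 15.7, 17.5 and 5.96 CPM in control and 6.80, 4.89 and 3.71 in KO (-1.34, edgeR adjusted p = 0.0231). These groups overlapped as well. Hist2h3c1 had 9.79, 15.6 and 5.51 CPM in control and 6.11, 4.06 and 4.27 in KO (-1.10, edgeR adjusted p = 0.0365). The call of these 4 genes was lost without control replicate 1, without control replicate 2, without KO replicate 2 and without KO replicate 3. Adjusted p-values in those edgeR fits ran from 0.0519 to 0.154. Hist2h2ab had 6.87, 7.35 and 4.44 CPM in control and 4.52, 3.47 and 1.83 in KO and missed the threshold (-0.91, edgeR adjusted p = 0.0635). It passed with a replicate block in the model (edgeR adjusted p = 0.0105). The 4 genes listed at 0 also belong to Hist2, and every 50-base stretch of them occurs in a transcript of another gene. The same holds for Hist2h3c1, whose stretches all occur in Gm20634. Of the stretches of Hist2h3c2, 63.5% occur in that gene.

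Overlapping transcripts complicate this cluster. Gm20632 and Gm20633 each hold 28.9% of the stretches of Hist2h2ac. Gm20633 had 3.16, 2.85 and 2.87 CPM in control and 7.82, 9.91 and 11.5 in KO (1.72, edgeR adjusted p = 0.000722). Gm20632 had 3.65, 2.33 and 2.57 CPM in control and 5.50, 7.32 and 6.81 in KO (1.22, edgeR adjusted p = 0.00637). Both changes were opposite to that of Hist2h2ac and at far lower counts. Gm20628, which holds all stretches of Hist2h3b and Hist2h2bb, was not called (-0.05, edgeR adjusted p = 0.912). How the authors divided such reads was not given in the sources used here.

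Members that rose were few and low. Hist2h2be, an H2B gene with a long annotated 3-prime end and no shared stretch, had 3.16, 2.56 and 2.69 CPM in control and 5.09, 6.38 and 3.66 in KO (0.86, SE 0.282, edgeR adjusted p = 0.0339). The KO group was above the controls throughout. Its call was lost in 5 of the 6 fits that leave out 1 library, every one but that without KO replicate 3, with adjusted p-values up to 0.146. Hist3h2a, an H2A gene, had 2.25, 1.24 and 1.28 CPM in control and 3.23, 3.10 and 3.61 in KO (1.09, SE 0.327, edgeR adjusted p = 0.0240). It was not called without control replicate 2 (adjusted p = 0.0594 in edgeR), KO replicate 1 (0.0521), KO replicate 2 (0.0609) or KO replicate 3 (0.0746). It starts at the same base as Trim17, chr11:58954685, on the same strand, and 31.5% of its stretches are shared, mostly with that gene. Trim17 itself was higher, with 1.95, 1.03 and 1.52 CPM in control and 3.68, 3.74 and 4.32 in KO (1.41, edgeR adjusted p = 0.00688), so the reads of the pair cannot be fully told apart.

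Hist3h2ba, the H2B neighbour of Hist3h2a, went down. It had 21.0, 28.6 and 14.3 CPM in control and 9.42, 10.4 and 7.88 in KO (-1.20, SE 0.253, edgeR adjusted p = 0.00514), with separate groups. Hist4h4 on chromosome 6 had 107, 131 and 63.1 CPM in control and 82.0, 60.2 and 49.7 in KO. It showed the smallest difference of any H4 gene, -0.65, with overlapping groups, and did not pass (SE 0.269, edgeR adjusted p = 0.0755). With a replicate block in the model it was called lower (edgeR adjusted p = 0.00789).

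**Figure D4:**
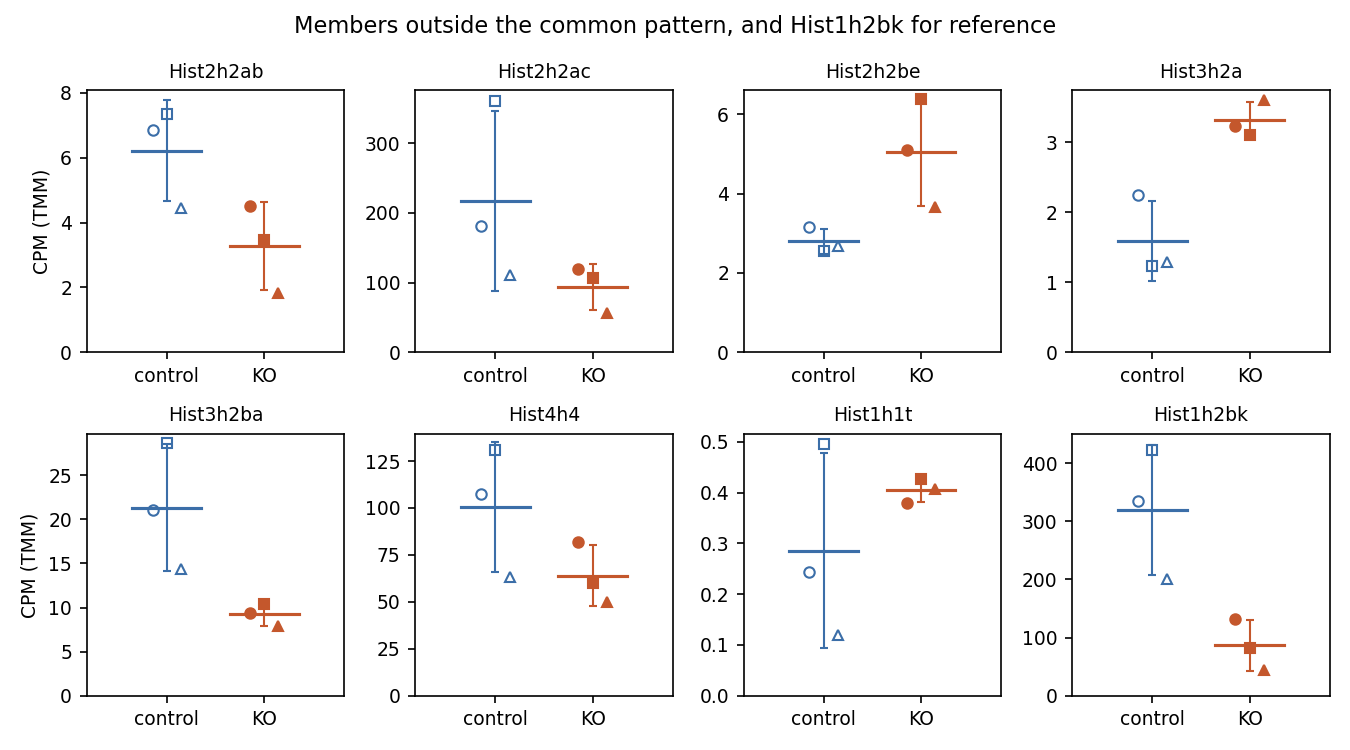
CPM (vertical axes) in control (open) and KO (filled) libraries for the 7 members Hist2h2ab, Hist2h2ac, Hist2h2be, Hist3h2a, Hist3h2ba, Hist4h4 and Hist1h1t, and for Hist1h2bk, with mean and SD; circles, squares and triangles are replicates 1, 2 and 3. Hist2h2be and Hist3h2a are higher in all KO libraries, Hist1h2bk and Hist3h2ba are lower in all KO libraries, and the groups overlap for the other 4.

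Many H2A and H2B genes stand back to back and are read outward from a shared stretch. There were 13 such pairs with starts less than 1000 bases apart, 12 of an H2A with an H2B gene and 1 of Hist1h2bh with Hist1h3f, and their starts lay 176 to 660 bases apart. In 12 pairs both genes were tested. Their log2 fold changes differed by a median of 0.14, and by no more than 0.32 in all but 1 pair. The largest of these, 0.32, was between Hist1h2ah (-1.56) and Hist1h2bk (-1.88). The exception was Hist2h2ac (-1.21) and Hist2h2be (0.86), which differed by 2.07. The stretch between them, read on the minus strand toward the start of Hist2h2ac in RefSeq (GRCm38.p6), is printed with the same motifs in capitals because it separates a gene that fell from a neighbour that rose.
between Hist2h2ac and Hist2h2be, chr3:96220881-96221071, minus strand: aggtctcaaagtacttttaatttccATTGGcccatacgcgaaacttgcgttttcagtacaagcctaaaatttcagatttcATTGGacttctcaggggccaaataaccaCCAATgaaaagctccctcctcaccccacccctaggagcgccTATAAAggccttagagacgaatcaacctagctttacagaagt
It is 191 bases long, since it ends at the RefSeq start of Hist2h2be, which lies nearer than the GENCODE start 239 bases away. It held 3 CCAAT matches and 1 TATAAA match. The octamer in the longer promoter window of Hist2h2ac lies outside it.

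**Figure D5:**
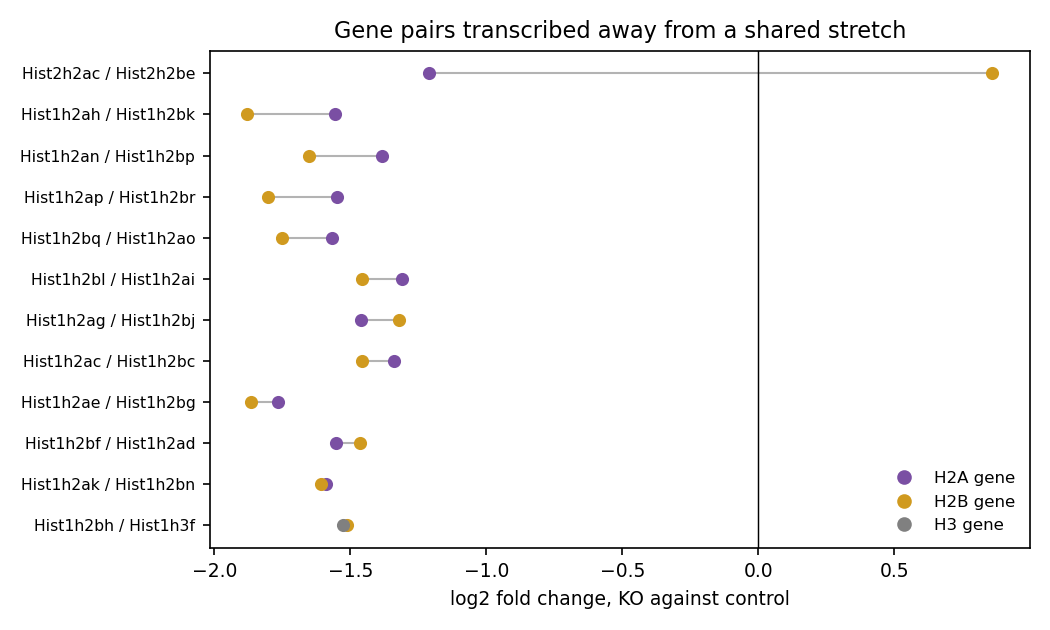
Log2 fold changes of KO against control (horizontal axis) of the 2 genes of each of the 12 tested back-to-back pairs, joined by a line, with H2A, H2B and H3 genes in separate colours. In 11 pairs both genes lie at -1.31 or lower, and only Hist2h2be lies above 0.

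Of 27 genes for histone mRNA synthesis and 3-prime processing, all tested, 8 were lower and 4 higher, with a median of -0.08, beside 22.9% lower and 23.2% higher among all tested genes. Npat was slightly lower, at 85.8 ± 1.46 CPM in control and 68.9 ± 5.97 in KO (-0.32, edgeR adjusted p = 0.0394). Slbp, whose product binds the stem-loop, had 114 ± 25.7 and 96.5 ± 9.89 CPM and did not pass (-0.24, edgeR adjusted p = 0.267). The largest decreases in the list were in Ccne2, a cyclin E gene (-1.12), and Lsm11, a protein of the U7 particle that cuts histone mRNA (-0.92), and the largest increases in Zcchc6, which adds uridines to histone mRNA (0.64), and Ncbp2, a cap-binding protein (0.60). Of 12 histone chaperone genes 7 were lower and none higher, led by Chaf1b (-1.32) and Hat1 (-1.22). None of the 12 listed RNAs without a poly(A) tail was a row of the table.

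Of 26 DNA replication genes 25 were lower and none higher, beside 22.9% lower and 23.2% higher among all tested genes. Their median was -1.22, led by Pola1 (-1.49) and Lig1 (-1.39). Their summed level was 3071 to 5374 CPM in control and 1565 to 2633 in KO. The ratio of the histone sum to this sum was 3.84, 4.43 and 3.68 in control and 3.11, 3.28 and 2.54 in KO (3.98 ± 0.397 and 2.97 ± 0.388, SD, n = 3), with every KO library below every control, a description with no test. The same ratio by class did not overlap for H1, H2B and H4. It overlapped for H2A (0.257 to 0.407 in control, 0.202 to 0.313 in KO) and for H3 (0.426 to 0.630 in control, 0.315 to 0.502 in KO). Whether the KO libraries came from fewer replicating cells was not measured, and any part of this in the histone result was not tested. Of 11 genes listed as histone variants with polyadenylated mRNA, 5 were lower, led by Cenpa (-1.23) and H2afx (-1.18). In this list 2 were higher, H2afj (0.72) and H3f3a (0.48), and the median was -0.59. The shares among all tested genes were again 22.9% lower and 23.2% higher, so 2 higher genes of 11 do not exceed that share. Whether the counted RNA of these genes carried a poly(A) tail was not measured.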

How the data were processed

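RNA of 6 libraries, 3 control and 3 KO, was sequenced, and groups and replicate numbers were taken from sample titles. Per the submitters' processing notes, STAR, featureCounts, DESeq2 and build mm10 were used; versions, annotation, strand setting, library type and the treatment of reads with several matches were not given in the sources used here. The authors deposited whole-number counts per gene symbol, with no sign of normalization.

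The whole table was tested with edgeR 4.0.16 (R 4.3.3; quasi-likelihood test, TMM factors, filterByExpr by group, Benjamini-Hochberg adjustment over 14268 genes holding 99.9% of counts, threshold 0.05), after a check on simulated counts. The biological coefficient of variation was 0.212. A floor of 3 counts corresponds to 0.0619 to 0.182 CPM. Sums are TMM CPM of all member counts and have no test. Deviations of libraries with equal replicate numbers correlated at 0.270, 0.130 and 0.379, and those with unequal numbers at -0.390 to 0.204. The highest unequal value, control 2 with KO 1, exceeded that of the equal pair 2, so a pairing remained uncertain. The main test therefore used no replicate block, which was kept as an alternative. Where a pairing would come from is not stated. Replicate 3 differed in sex from replicates 1 and 2 in both groups, and the main test had no term for sex. Coordinates, shared 50-base stretches and stem-loops are from GENCODE M21 (GRCm38), promoters from RefSeq (GRCm38.p6), matched for 62 of 67 members. Members and lists were chosen with earlier results of these data known. Named genes were the 4 members per class with most counts, the extremes of each class, each tested member not called lower, each tested member of Hist2, Hist3 and Hist4, and in each list the 2 called genes with the largest change each way, with Slbp, Npat and Rtf1; Cd4 and the neighbouring genes were named after their values were seen. Alternatives were 5 scalings, 2 filters, the DESeq2 1.42.0 Wald test, a replicate block, leaving out each library, replicates 1 and 2 alone, members with few shared stretches, and levels per kilobase of exon length. Levels per kilobase of coding length were added after seeing the data.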

Additional observations from a re-analysis of the deposited data

How the results depend on the processing

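The 57 members called lower became 57 to 59 under the other scalings, filters, the DESeq2 Wald test, the replicate block (59) and replicates 1 and 2 alone, and 40 to 59 when 1 library was left out, fewest with control replicate 2 (40) or KO replicate 2 (43) left out. The count of members called higher, 2, was 1 with replicates 1 and 2 alone and 0 to 1 with 1 library left out. Of 59 called members, 39 kept their call in all 6 fits with 1 library left out. The median log2 fold change stayed between -1.85 and -1.16 in these fits, and was -1.43 with library size only, where the median of all tested genes moved to 0.10. Hist1h1t changed sign without control replicate 3 (-0.048, edgeR adjusted p = 0.948) and ranged from there to 1.29 with 1 library left out; the cause was not tested. Hist2h2ab and Hist4h4 were called lower with any count as the filter, with DESeq2 and with the replicate block, and Hist2h2ac lost its call with DESeq2 (adjusted p = 0.0725). The replicate block changed no other member's call. The summed level of all members had a log2 ratio of -1.82 to -1.24 with 1 library left out. Depth limits Hist1h1t and Hist1h2aa, and shared sequence limits every statement on a single copy.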
